A study of Mus musculus with 2 samples.

Results

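The genes described here are the variable (V) segments of the T cell receptor alpha and beta chains in immune cells sorted from mouse tumours. They were chosen by name: every gene whose symbol starts with Trav or Trbv, which gave 163 segments (128 Trav and 35 Trbv) of the 32285 genes counted. Segments were read in T cells, taken as cells with at least 2 UMIs (unique molecular identifiers, each standing for 1 captured RNA molecule) summed over Cd3e, Cd3d and Cd3g, the genes of the CD3 chains that carry the receptor to the cell surface. That minimum was met by 1737 of 6419 cells in the control library and by 1493 of 5833 in the treated library.

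A T cell makes its receptor by joining 1 V segment to a joining segment, and in the beta chain a diversity segment as well, in front of a constant gene. Because the joins of a mature T cell are passed on to daughter cells, the descendants of such a cell share their segments. A mixed population of T cells uses many. The alpha locus also holds the delta chain, so some alpha V segments can be spliced to the delta constant gene Trdc in place of the alpha constant gene Trac.

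Both libraries came from wild type BALB/c mice carrying subcutaneous tumours of MFC, a mouse forestomach carcinoma line, with CD45+ immune cells sorted from the digested tumours. The control mice were given PBS. The treated mice were given thonzonium bromide, a quaternary ammonium surfactant, at 50 mg/kg every other day from day 6, and tumours were taken on day 10. The 2 labels carry the same treatment text, and neither states how many mice were pooled. There was 1 library in each group, so no difference between the groups has a replicate check. All intervals below are exact 95% intervals that cover counting error only, and no test between groups was made. The share that a count of 0 allows is instead given as 3 counts of the total, a limit slightly lower than the exact bound.

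The kit reads the 3′ end of transcripts, far from the V segment, and only a minority of T cells showed one. The V segments lie at the 5′ end of the mature RNA, on chromosome 14 for alpha (128 segments over 1550 kb) and chromosome 6 for beta (35 segments over 667 kb, GRCm38). The last 300 coding bases of the 6 segments that led a group of treated CD8 T cells are shown first, followed by Trav13-4-dv7, which led the segments shared with the delta chain. Sequences are from GENCODE M21 on GRCm38, plus strand, 5′ to 3′. Capitals mark the bases that differ from the closest other V segment, and so show where reads could tell the pair apart.
Trbv13-1: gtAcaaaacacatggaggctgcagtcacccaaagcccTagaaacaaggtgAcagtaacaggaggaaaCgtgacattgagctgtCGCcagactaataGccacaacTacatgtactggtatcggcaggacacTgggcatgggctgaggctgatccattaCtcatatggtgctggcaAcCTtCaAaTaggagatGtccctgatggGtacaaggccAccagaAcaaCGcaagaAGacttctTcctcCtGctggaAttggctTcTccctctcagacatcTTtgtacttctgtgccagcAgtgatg
Trav7d-2: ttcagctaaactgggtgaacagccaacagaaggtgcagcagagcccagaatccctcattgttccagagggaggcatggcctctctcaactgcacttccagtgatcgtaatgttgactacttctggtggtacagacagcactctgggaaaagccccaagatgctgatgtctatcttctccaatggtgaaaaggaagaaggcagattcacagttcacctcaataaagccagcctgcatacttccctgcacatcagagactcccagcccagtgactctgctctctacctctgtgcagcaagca
Trav8d-2: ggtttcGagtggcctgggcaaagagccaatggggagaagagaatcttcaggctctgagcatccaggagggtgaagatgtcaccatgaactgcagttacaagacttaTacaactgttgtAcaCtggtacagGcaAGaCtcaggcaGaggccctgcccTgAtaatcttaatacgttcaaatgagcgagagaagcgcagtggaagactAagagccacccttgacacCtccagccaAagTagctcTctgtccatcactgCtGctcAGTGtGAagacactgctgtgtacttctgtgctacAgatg
Trav5-4: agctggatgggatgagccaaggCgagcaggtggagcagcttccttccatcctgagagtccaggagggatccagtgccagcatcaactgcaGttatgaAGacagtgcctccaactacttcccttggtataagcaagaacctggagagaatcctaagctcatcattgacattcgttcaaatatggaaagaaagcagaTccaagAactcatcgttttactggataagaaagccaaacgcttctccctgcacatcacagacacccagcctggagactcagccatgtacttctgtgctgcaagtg
Trav3-4: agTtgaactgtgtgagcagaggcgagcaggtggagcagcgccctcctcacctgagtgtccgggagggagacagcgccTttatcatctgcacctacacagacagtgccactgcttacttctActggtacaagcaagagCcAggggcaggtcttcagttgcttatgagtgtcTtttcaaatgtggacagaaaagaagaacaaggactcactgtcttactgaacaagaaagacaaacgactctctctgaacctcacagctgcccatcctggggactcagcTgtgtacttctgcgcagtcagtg
Trbv12-2: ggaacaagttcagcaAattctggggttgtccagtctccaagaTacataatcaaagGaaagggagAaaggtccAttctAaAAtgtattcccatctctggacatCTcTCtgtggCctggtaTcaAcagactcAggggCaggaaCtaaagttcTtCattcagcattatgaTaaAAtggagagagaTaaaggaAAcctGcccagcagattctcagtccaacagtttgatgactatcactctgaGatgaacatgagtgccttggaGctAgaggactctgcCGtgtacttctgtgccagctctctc
Trav13-4-dv7: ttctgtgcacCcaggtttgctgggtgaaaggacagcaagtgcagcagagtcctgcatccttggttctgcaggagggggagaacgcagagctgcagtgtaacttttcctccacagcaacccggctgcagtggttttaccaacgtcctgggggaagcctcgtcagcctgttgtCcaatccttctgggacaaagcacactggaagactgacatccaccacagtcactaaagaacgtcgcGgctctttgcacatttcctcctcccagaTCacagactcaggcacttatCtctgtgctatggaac

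Trbv13-1 (ENSMUSG00000076467, chr6:41116007-41116468, 2 exons) had 299 of 337 coding bases in common with its closest relative Trbv13-2, and each of its 60-base windows occurred in no other V segment. Trav8d-2 (ENSMUSG00000076795, chr14:53042428-53042891) shared 92.6% of its bases with Trav8n-2. Trav7d-2 (ENSMUSG00000105533, chr14:52683964-52684472) has no capitals: all 336 aligned bases were the same as in Trav7-2. Counts given to Trav7d-2 therefore cannot be told apart from counts of Trav7-2, a segment that was at 0 in every T cell of both libraries. Trav5-4 (ENSMUSG00000095607, chr14:53704007-53704514) differed from its closest relative Trav5d-4 at 6 bases, and Trav3-4 (ENSMUSG00000076858, chr14:53776956-53777576) from Trav3-1 at 10. Trbv12-2 (ENSMUSG00000094525, chr6:41118851-41119364) lies 2.4 kb from Trbv13-1 and shared 88.2% of its bases with Trbv12-1. Trav13-4-dv7 (ENSMUSG00000094562, chr14:53757356-53757921) differed from Trav13d-4 at 7 bases.

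An alpha segment was found in 356 of 1737 control T cells, or 20.5% (18.6 to 22.5), and in 355 of 1493 treated T cells, or 23.8% (21.6 to 26.0). A beta segment was found in 236 control cells, or 13.6% (12.01 to 15.3), and in 302 treated cells, or 20.2% (18.2 to 22.4). Both chains were seen in 61 control and 88 treated cells. Depth moved with these shares: the median T cell had 5193 UMIs in the control library and 7362 in the treated one. Control T cells with at least 8000 and under 16000 UMIs had a beta segment in 21.8% of cases, against 8.66% of those with at least 2000 and under 4000. In the same depth ranges the treated values were 24.8% and 12.9%. When every cell was thinned to 2000 UMIs, with 242 shallower control cells and 38 treated ones dropped, a beta segment remained in 5.42% (4.33 to 6.69) of control and 6.25% (5.07 to 7.62) of treated cells. An alpha segment then remained in 9.97% (8.49 to 11.6) and 8.04% (6.70 to 9.56). At equal depth the intervals of the libraries overlapped for both chains, and the alpha share was higher in the control library, the opposite of the order at full depth.

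Segment RNA was rare outside the T cells. Among all other cells, an alpha segment was in 67 of 4682 control and 33 of 4340 treated cells, and a beta segment in 14 and 8. Among barcodes that passed B cell markers and had no CD3 UMI, 0 of 198 control barcodes had a beta segment, which allows a share of up to 1.52%, and 1 of 508 treated barcodes did. Those barcodes had median depths of 3836.5 and 3726 UMIs. Among macrophage barcodes, with medians of 5033 and 8858 UMIs, 0 of 867 and 2 of 1964 had a beta segment. RNA of other cells was present in the T cells themselves. Haemoglobin UMIs were present in 95.4% of the control T cells and 57.6% of the treated T cells, the macrophage markers in 32.1% and 41.3%, and the B cell markers in 5.87% and 11.5%. The NK cell receptor gene Ncr1 was found in 223 control and 230 treated T cells. The part of these cells and of doublets in segment use was not tested beyond leaving them out, as given below for the results they touch. The libraries shared 14 barcodes in all, none of them among the T cells.

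Of the 128 alpha segments, 75 had a UMI in a T cell, 68 of them in control cells, 63 in treated cells and 56 in both. The 53 that were not seen included 37 without a single 60-base window of their own, against 2 of the 75 seen. Of the 35 beta segments, 21 were seen, 20 of them in both libraries, and none lacked a window of its own. The 14 beta segments not seen were 12 annotated pseudogenes and the genes Trbv21 and Trbv30. The pseudogene Trbv24 was read in 3 control and 5 treated cells. Segment counts were low: 577 alpha and 294 beta UMIs in the control library, and 605 and 396 in the treated one. A segment was called from 1 UMI in 65.4% of alpha-positive and 82.2% of beta-positive control cells.

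Trbv13-1 was the beta segment that differed most between the libraries. It was found in 13 of 236 beta-positive control T cells, or 5.51% (2.97 to 9.24), and in 69 of 302 treated ones, or 22.8% (18.2 to 28.003). Trbv2 was the commonest segment of the control library, in 35 cells or 14.8% (10.6 to 20.02), and was in 41 cells of the treated one, or 13.6% (9.92 to 18.0). Trbv12-2 came next by the mean of the libraries, with 8.47% of control and 12.9% of treated cells, and its intervals overlapped. Trbv13-2 was in 11.02% (7.32 to 15.7) and 5.96% (3.57 to 9.26), and Trbv16 in 8.90% (5.59 to 13.3) and 3.97% (2.07 to 6.84). The other 7 of the 12 commonest beta segments lay between 3.81% and 6.36% in the control library and between 2.32% and 7.28% in the treated one. Of the 12, only Trbv13-1 had intervals that did not overlap. The 12 were ranked by the mean of the libraries, so this count is not independent of the choice of segments. The matching count over all genes is not given here for either chain. When a segment needed at least 2 UMIs, Trbv13-1 was in 2 of 34 control and 10 of 56 treated cells, and its intervals overlapped.

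**Figure D1:**
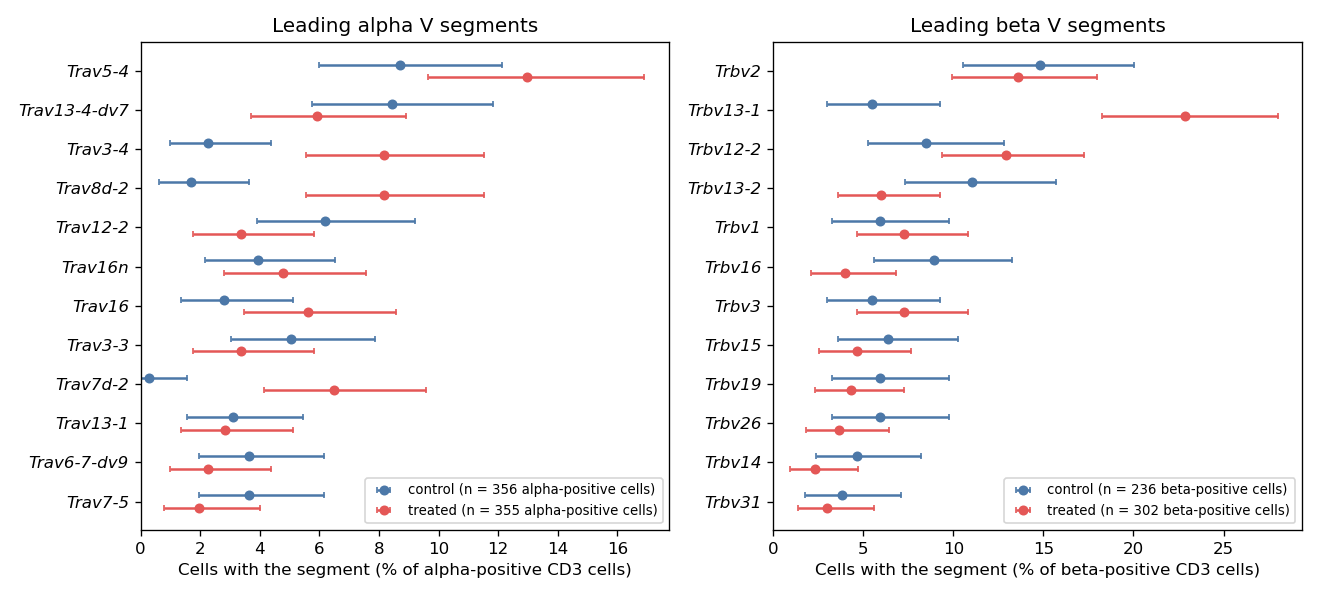
Share of alpha-positive (left) and beta-positive (right) T cells that held each of the 12 commonest V segments, in percent, for the control (blue) and treated (red) library; bars are exact 95% intervals for counting error. Trbv13-1, Trav3-4, Trav8d-2 and Trav7d-2 are the segments whose intervals do not overlap.

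Among the alpha segments, 3 of the 12 commonest had intervals that did not overlap, all higher in the treated library. The 12 were ranked by mean share over both libraries, so a segment could enter through the library where it was high, as Trav7d-2 did. The count and its direction are therefore not independent of the choice of segments. Trav8d-2 was in 6 of 356 control cells, or 1.69% (0.621 to 3.63), and in 29 of 355 treated cells, or 8.17% (5.54 to 11.5). Trav7d-2 was in 1 control cell and in 23 treated cells, or 6.48% (4.15 to 9.56). Trav3-4 was in 8 control cells, or 2.25% (0.9751 to 4.38), and in 29 treated cells, or 8.17% (5.54 to 11.5). When a segment needed at least 2 UMIs the intervals of all 3 overlapped: Trav8d-2 was in 1 of 96 control cells (1.04%) and 2 of 97 treated ones (2.06%), Trav7d-2 in 0 and 4, and Trav3-4 in 4 and 12. Trav5-4, the commonest alpha segment of both libraries, was in 31 control cells, or 8.71% (5.99 to 12.1), and in 46 treated cells, or 13.0% (9.65 to 16.9). Trav13-4-dv7 was in 30 and 21 cells, and Trav12-2 in 22 and 12, with overlapping intervals.

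Few segments had enough UMIs for a comparison of levels. With at least 50 UMIs over both libraries, 4 alpha and 4 beta segments could be set against all 11277 such genes, of which 2.94% were past 2-fold either way with an interval that left out 1, and by this rule 1.98% were higher and 0.967% lower. Trbv13-1 had 1.34 CPM (UMIs scaled to the same total in each library) in control T cells and 5.69 CPM in treated ones, a ratio of 4.24 (2.49 to 7.63). Trav3-4 had 1.19 and 3.70 CPM, a ratio of 3.12 (1.73 to 5.97). With each cell scaled to the same total, the log2 ratio of Trav3-4 fell from 1.64 to 0.85, below 2-fold, and that of Trbv13-1 went from 2.08 to 2.46. The other 6 segments, Trav5-4, Trav12-2, Trav13-4-dv7, Trbv2, Trbv12-2 and Trbv13-2, did not reach 2-fold. The median log2 ratio was 0.13 over the 4 alpha and 0.60 over the 4 beta segments, beside -0.04 over all genes tested.

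None of the 11 constant and CD3 genes and none of the 15 signalling genes was past 2-fold between the libraries. Cd3e, Cd3d and Cd3g set the T cell minimum in both libraries, so their levels are not independent of that choice. Trac had 412 CPM in control and 470 CPM in treated T cells. Trbc2, the second beta constant gene, had 891 and 1156 CPM, a ratio of 1.297 (1.27 to 1.33). The coreceptor gene Cd8b1 had 200 and 345 CPM, a ratio of 1.73 (1.65 to 1.82), and Cd4 had 38.9 and 21.6 CPM. Of the gamma and delta V segments, 4 of 13 had enough UMIs, and none of the 4 was called. Trdv4 was the highest of them in ratio, with 7.82 and 14.4 CPM.

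The T cells were next divided by UMIs of marker genes. Each group is a range of counts rather than a cell type, and no doublet caller was run. Foxp3 cells, with the transcription factor of regulatory T cells, numbered 268 without and 124 with treatment. CD8 cells with Gzmk, a granzyme gene, numbered 8 and 188. CD8 cells with Gzmf, a granzyme gene of strongly activated killer cells, numbered 75 and 56. Cells with Ly49 receptor genes and no Ncr1 numbered 354 and 267. The remaining cells are not described as groups.

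Trbv13-1 made up most of the beta chains read in treated Gzmk CD8 cells. It was found in 41 of the 54 cells with a beta segment, or 75.9% (62.4 to 86.5). Trbv2 was next, in 6 of the 54. Outside this group Trbv13-1 was in 28 of 248 treated cells, or 11.3% (7.63 to 15.9), and 5.60% (3.02 to 9.39) of control cells. The control library had only 4 Gzmk CD8 cells with a beta segment, none with Trbv13-1, so segment use there could not be compared. In unsupervised clusters made without any V segment gene, the cluster led by Gzmk held 209 treated and 18 control cells, and 51 of its 57 treated beta-positive cells had Trbv13-1, or 89.5% (78.5 to 96.0). In treated cells that were in neither the Gzmk group nor the Gzmk cluster, Trbv13-1 was found in 14 of 230, or 6.09% (3.37 to 10.0), and in 12 of 227 such control cells, or 5.29% (2.76 to 9.05). Away from the cells with Gzmk the intervals of the libraries overlapped.

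**Figure D2:**
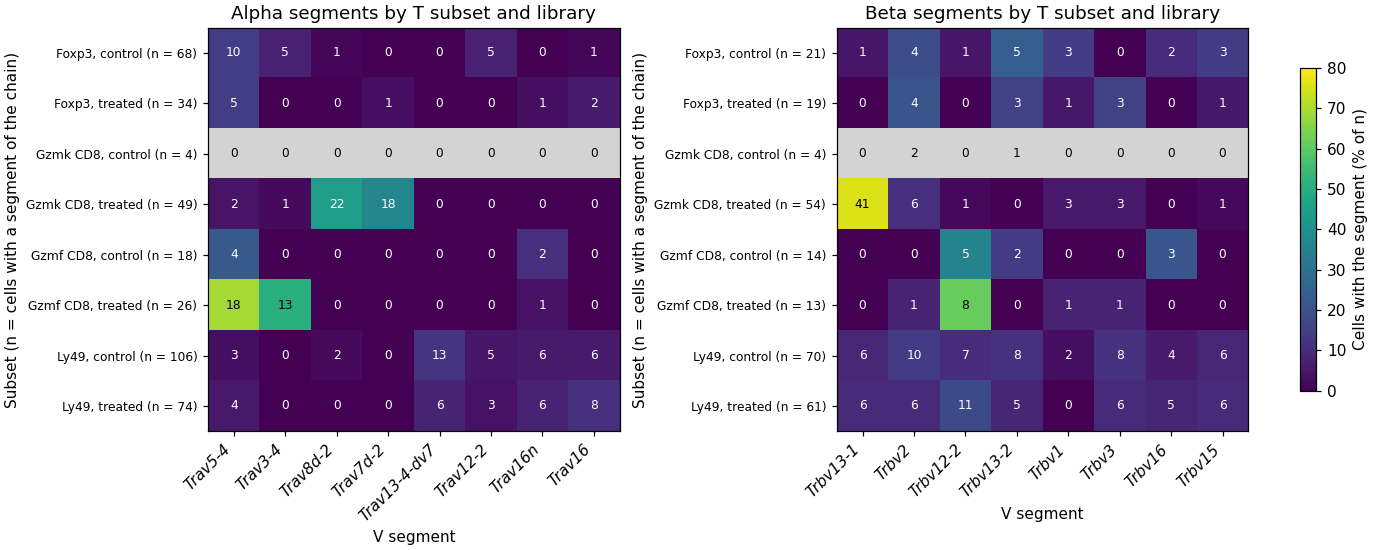
Use of 8 alpha (left) and 8 beta (right) segments by T cell group and library. Colour is the share of cells with the segment among cells with any segment of that chain (n in each row label), the printed number is the count of cells, and rows with fewer than 10 such cells are grey. Treated Gzmk CD8 cells stand out for Trbv13-1 (41 of 54), Trav8d-2 (22 of 49) and Trav7d-2 (18 of 49), and treated Gzmf CD8 cells for Trav5-4 (18 of 26), Trav3-4 (13 of 26) and Trbv12-2 (8 of 13).

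The alpha chains of the treated Gzmk CD8 cells came mainly from a pair of segments. Of 49 alpha-positive cells, Trav8d-2 was read in 22, or 44.9%, and Trav7d-2 in 18, or 36.7%. The pair was seen in the same cell in only 2 treated T cells. Trbv13-1 was read together with Trav7d-2 in 9 treated cells and with Trav8d-2 in 6, and in the control library with neither. Of the 10 treated Trav7d-2 cells that also had a beta segment, 9 had Trbv13-1. All 6 treated Trav8d-2 cells with a beta segment had it too. Outside the Gzmk group and cluster, Trav8d-2 was in 1.01% of treated and 1.71% of control alpha-positive cells, and Trav7d-2 in 0.673% and 0.286%.

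Within the Gzmk CD8 group the cells with Trav7d-2 and those with Trav8d-2 were compared in the treated library, with 18 and 21 cells after the cell with both was left out of the second. The cluster led by Gzmk held 16 of the 18 and 16 of the 21, so the arms differed somewhat in cluster makeup. Gzmb, a cytotoxic granzyme, had 3508 CPM in the Trav7d-2 cells and 1811 CPM in the Trav8d-2 cells, a ratio of 1.94 (1.68 to 2.24). Gzma had 1212 and 437 CPM, and the pore-forming gene Prf1 had 671 and 329 CPM. Nr4a2, an early response gene of receptor signalling, was lower in the Trav7d-2 cells, with 450 and 873 CPM. Cd8a, Pdcd1, Lag3, Havcr2, Tox and Ctla4 were among 19 of 26 genes compared whose ratios had intervals that included 1. Of the 26, 6 were higher in the Trav7d-2 cells and 1 was lower. The matching share over all genes is not given here, so these counts have no background to be read against. All these values are sums over cells of 1 library, so a few cells can set a ratio.

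Most treated Trbv13-1 cells had CD8 RNA, and they differed in other genes from treated cells with another beta segment. The arms differed in makeup. Of the 69 Trbv13-1 cells, 41 were Gzmk CD8 cells. Of the 233 others, 13 were Gzmk CD8, 55 Ly49 and 19 Foxp3 cells. The values below therefore compare different mixes of cells, and the part of the segment itself was not tested. Of the 69 treated cells, 62 had Cd8a or Cd8b1 RNA and none had Cd4 or Foxp3. Ccl5, a chemokine of effector T cells, had 11689 CPM in them and 1446 CPM in treated cells with another beta segment, a ratio of 8.08 (7.77 to 8.41). Tox, a regulator of T cells under lasting stimulation, had 351 and 53.0 CPM. Pdcd1, the gene of PD-1, had 274 and 116 CPM, and Ctla4 had 243 and 97.6 CPM. Tcf7, a transcription factor gene of memory T cells, was lower, with 33.9 and 149 CPM, and Gzmf had 1 UMI in the 69 cells and 748 in the 233 others. Gzmk itself had 292 and 18.1 CPM.

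Trbv13-1 cells were also set against the other cells of the same Gzmk CD8 group, 41 against 13. The arms lay in different clusters: 37 of the 41 were in the cluster led by Gzmk, but 2 of the 13, of which 9 were in the cluster led by Gzmf. The values below therefore compare cells of different clusters. Ccl5 had 14144 CPM with Trbv13-1 and 2554 CPM with another beta segment, a ratio of 5.54 (5.07 to 6.07). Tox (423 and 101 CPM), Ctla4 (329 and 91.2 CPM) and Itga4, an integrin gene (489 and 158 CPM), were higher with Trbv13-1. Gzmb (1690 and 3788 CPM), Gzma (133 and 470 CPM) and Prf1 (340 and 730 CPM) were lower. The 13 other cells were deeper, with a median of 15570 UMIs against 7516. In the 13 control Trbv13-1 cells, Gzmk had 0 UMIs, Gzmf had 1 and Ccl5 had 2590 CPM, against 1082 CPM in control cells with another beta segment. Of 26 genes compared there, 2 were higher with Trbv13-1 (Ccl5 and Cxcr6, a chemokine receptor gene), 11 were lower and 13 had intervals that included 1. The matching share over all genes is not given here, so these counts have no background to be read against.

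The treated Gzmf CD8 cells used other segments. Trav5-4 was found in 18 of 26 cells with an alpha segment, or 69.2%, and Trav3-4 in 13, or 50.0%. Trbv12-2 was found in 8 of 13 cells with a beta segment, or 61.5% (31.6 to 86.1), but in 30.2% (18.3 to 44.3) of such cells in the cluster led by Gzmf. The control Gzmf CD8 cells had Trav5-4 in 4 of 18 cells, Trav3-4 in none and Trbv12-2 in 5 of 14. In the cluster led by Gzmf, which held 155 control and 152 treated cells, Trav5-4 was in 9 of 46 control and 28 of 56 treated alpha-positive cells. Trav3-4 was there in 0 of 46 control cells, which allows a share of up to 6.52%, and in 24 of 56 treated cells. Outside the Gzmf group and cluster, Trav3-4 was in 2.61% of control and 1.02% of treated alpha-positive cells, and Trav5-4 in 7.17% and 4.76%.

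Many of these cells had RNA of both alpha segments. This pairing was singled out after its values were seen. Trav5-4 and Trav3-4 occurred in the same cell in 22 treated cells, of 46 with the first and 29 with the second. In the control library no cell had both, of 31 and 8. The segments share 72.1% of their bases, lie 72.4 kb apart and have 8 other V segments between them. Trbv12-2 was the only beta segment read in the 22 cells, in 7 of them. All 22 cells had Cd8a or Cd8b1 RNA and none had Trdc, and 20 of the 22 were in the Gzmf cluster. By the marker groups, 12 of the 22 were Gzmf CD8 cells and 10 were in none of the described groups. Their median depth was 13237 UMIs, against 8208 in treated cells with other alpha segments. Without the deepest 5% of T cells, 20 cells with both were left.

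The 22 cells also differed in other genes from the Trbv13-1 cells of the Gzmk group in the same library. These arms lay in different clusters: 20 of the 22 were in the cluster led by Gzmf, and 37 of the 41 in the cluster led by Gzmk. The values set against Trbv13-1 cells below therefore compare cells of different clusters. Gzmf had 3292 CPM in the 22 cells and 104 CPM in treated cells with other alpha segments, a ratio of 31.7 (28.1 to 35.8). Gzmb had 3271 CPM, against 1690 CPM in the Trbv13-1 cells of the Gzmk group. Ccl5 was lower, with 1196 against 14144 CPM, as were Tox (42.0 against 423 CPM), Ctla4 (69.2 against 329 CPM) and Itga4 (92.3 against 489 CPM). The proliferation gene Mki67 had 104.9 CPM against 23.5 CPM. Lag3 and Havcr2, genes of inhibitory receptors, had intervals that included equal levels.

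A second pairing was of beta segments. Trbv1 and Trbv2, which lie 155.5 kb apart with no other V segment between them, were read together in 8 treated cells, of 22 with Trbv1 and 41 with Trbv2, and in no control cell, of 14 and 35. All 8 had Cd8b1 RNA and 7 of the 8 were in the Gzmf cluster. By the marker groups, 2 were Gzmk CD8 cells, 1 was a Gzmf CD8 cell and 5 were in none of the described groups. In that cluster Trbv2 was in 20 of 53 treated beta-positive cells and Trbv1 in 11, against 10 and 0 of 41 in the control library. Over all T cells, 2 or more beta segments were seen in 9 of 236 control and 14 of 302 treated beta-positive cells, and 2 or more alpha segments in 39 of 356 and 51 of 355. The cells with 2 or more beta segments had median depths of 9058 and 12416.5 UMIs, against 7554 and 8518 in those with 1.

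The beta constant genes gave a readout that the choice of V segments did not use. A rearranged beta chain is joined to Trbc1 or to Trbc2, and the sequence of the V segment does not fix which. Trbc1 gave 37.9% of the beta constant UMIs of control cells with a beta segment and 31.7% in the treated library. The 22 cells with Trav5-4 and Trav3-4 had 3 Trbc1 UMIs of 527, or 0.569%, and 20 of them had Trbc2 alone. The 8 cells with Trbv1 and Trbv2 had 0 Trbc1 UMIs of 133. Treated cells with Trav5-4 and without Trav3-4 had 10.6% Trbc1 UMIs, and the 31 control Trav5-4 cells had 20.99%. Most of those treated cells had Trbc2 alone, and a cell with 90.9% Trbc1 among its 22 beta constant UMIs gave most of their Trbc1 UMIs.

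Trbv13-1 cells of the treated library gave another picture. Trbc1 made up 26.7% of their 2074 beta constant UMIs, with a median of 18.8% per cell, and 64 of the 69 cells had UMIs of both constant genes. In the 41 of them that were Gzmk CD8 cells, 40 had both. Only 5 of 69, or 7.25%, had Trbc2 alone, against 41.1% of treated cells with another beta segment. The cells were not matched for beta constant UMIs per cell, on which seeing both genes depends. Trav7d-2 and Trav8d-2 cells had nearly the same Trbc1 shares, 26.4% and 26.8%. The 13 control Trbv13-1 cells ranged from Trbc2 alone, in 5 cells, to a majority of Trbc1, in 4.

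**Figure D3:**
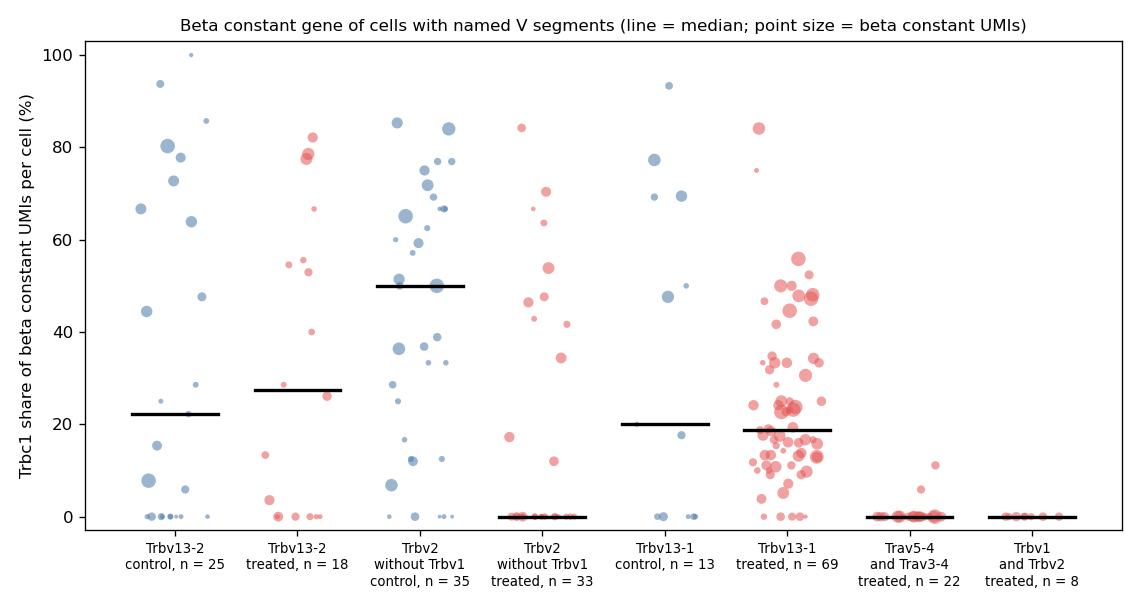
Trbc1 share of the beta constant UMIs of each cell, in percent, for cells grouped by V segment and library (blue control, red treated). Each point is a cell, its size grows with the cell's beta constant UMIs, and the line is the median. Treated Trbv13-1 cells gather around 18.8%, and cells with Trav5-4 and Trav3-4 or with Trbv1 and Trbv2 lie at or near 0. Many treated Trbv2 cells without Trbv1 also lie at 0, and the others range up to 84.2%. Trbv13-2 and control Trbv2 cells spread over most of the range.

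Diversity was measured as the probability that 2 cells drawn at random hold the same segment, after each cell was given to its segment with most UMIs. Over all T cells the beta value was 6.77% for control and 10.2% for treated cells. Without the Gzmk CD8 cells the values were 6.61% and 7.35%. The alpha values were 3.35% and 3.47%, and 3.39% and 3.15% without the Gzmk CD8 cells. Treated Gzmk CD8 cells had 58.6% for beta and 30.8% for alpha, and treated Gzmf CD8 cells 35.9% and 29.9%, the latter from 13 and 22 cells. These were the 4 highest values among the described groups of at least 10 assigned cells. In the clusters the treated values moved in opposite ways. The cluster led by Gzmf had lower values, 22.7% for beta and 17.3% for alpha, from 48 and 49 cells. The cluster led by Gzmk had higher ones, 79.9% and 36.2%, from 57 and 44 cells.

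The other described groups were mixed in both libraries. Ly49 cells had 6.43% (control) and 6.35% (treated) for beta, and 3.51% and 2.86% for alpha. Foxp3 cells had 8.95% and 8.19% for beta from only 20 and 19 cells. Control Gzmf CD8 cells had 12.8% for beta from 13 cells and 6.67% for alpha from 16. Trbv12-2 was the leading segment in 30.8% of those 13.

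**Figure D4:**
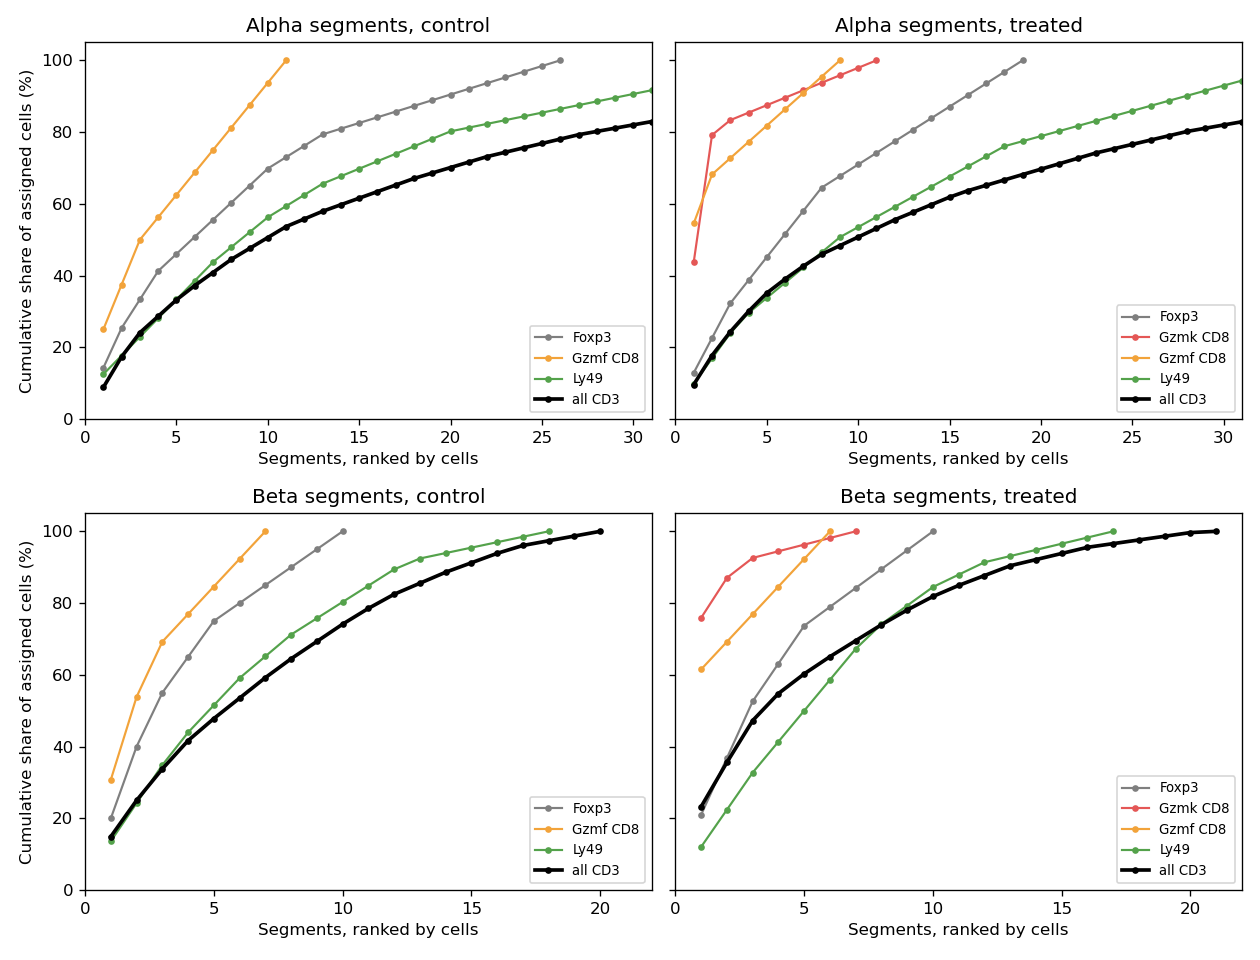
Cumulative share of cells covered by the commonest segments, with segments ranked by cells along the horizontal axis, for all T cells and for each described group with at least 10 assigned cells; alpha above, beta below, control left, treated right. The treated Gzmk CD8 curve starts at 75.9% for beta and 43.8% for alpha, while Ly49 cells start between 9.86% and 13.6% in both chains.

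Cells in which both chains were assigned gave a count of pairs. There were 58 such cells in the control library with 50 different pairs, of which 8 pairs were seen in more than 1 cell and none in more than 2. The treated library had 80 such cells with 54 different pairs, and 7 pairs seen more than once accounted for 33 cells. The commonest pair there was in 9 cells. The alpha locus of the reference also holds copies of a block of segments, named with d or n. Segments with d were assigned in 7.93% (5.24 to 11.4) of control and 21.02% (16.8 to 25.8) of treated alpha-assigned cells, a class that includes Trav7d-2 and Trav8d-2. The reference is built from C57BL/6, whereas the mice were BALB/c, so the split among near-identical copies is uncertain.

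Segments shared with the delta chain carry dv in their symbols, and 9 of the 10 were seen in each library. They were found in 80 of 356 control alpha-positive cells, or 22.5%, and in 67 of 355 treated ones, or 18.9%. Trav13-4-dv7 led them. Of its 30 control cells, 25 had Trdc RNA and 13 had Trac RNA. Of its 21 treated cells, 20 had Trdc and 6 had Trac. Trav15-1-dv6-1 had Trdc in 4 of 4 control and 7 of 7 treated cells, and Trav15-2-dv6-2 in 5 of 7 and 1 of 1. Most cells of the other shared segments had Trac, apart from Trav15d-1-dv6d-1, with Trdc in 2 of 3 treated cells: Trav6-7-dv9 had Trac in 12 of 13 control cells and Trdc in 1, and Trav21-dv12 in 11 of 12 and 2. Alpha segments without dv had Trdc in 7.61% of control and 11.5% of treated cells. Counts do not link a V segment to a constant gene on the same molecule.

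**Figure D5:**
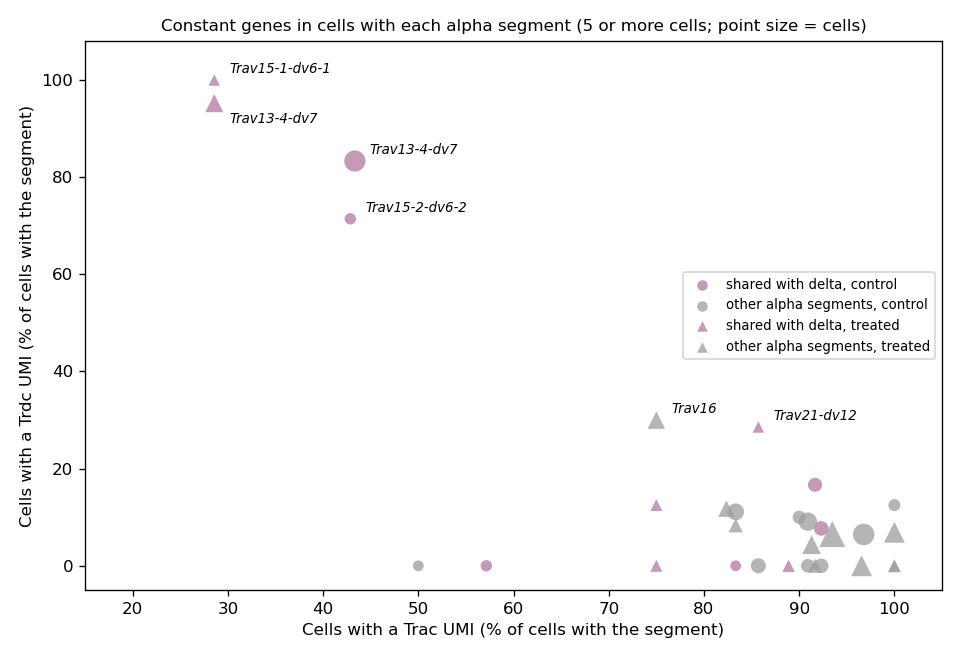
Share of cells with a Trac UMI (horizontal) and with a Trdc UMI (vertical), in percent of the cells that held each alpha segment, for segments with at least 5 cells; circles are the control and triangles the treated library, purple marks segments shared with the delta chain, and point size grows with the cells. Trav13-4-dv7, Trav15-1-dv6-1 and Trav15-2-dv6-2 lie at the upper left, at 71.4% to 100% Trdc, and the other segments lie at 30.0% or less.

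None of the Trav13-4-dv7 cells was in the Foxp3, Gzmk or Gzmf groups. In the control library 13 of 30 were Ly49 cells, and in the treated library 6 of 21. The others were among the T cells not described as groups. A gamma constant gene was found in 24 of the 30 and 19 of the 21, against 21.5% of all control T cells and 26.7% of treated ones. Ncr1 was present in 5 and 6 of them.

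Alpha segments of the receptors known for invariant T cells were read in few cells. Trav11, used by natural killer T cells, was in 2 control and 3 treated cells, and its copy Trav11d in none. Neither has a 60-base window of its own, so these copies cannot be told apart and their counts may be too low. Trav1, used by mucosal-associated invariant T cells, was in 2 and 2. The beta segments of natural killer T cells (Trbv13-2, Trbv29 and Trbv1), which other T cells use as well, were in 19.5% and 14.2% of beta-positive cells. Those of mucosal-associated invariant T cells (Trbv19, Trbv13-3 and Trbv13-2) were in 18.2% and 12.9%.

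Trbv26, Trbv12-1, Trbv12-2, Trbv16 and Trbv15 are beta segments whose T cells are known to be removed or reduced in BALB/c mice by superantigens of endogenous mammary tumour viruses. All 5 were read in both libraries, together in 76 of 236 control cells, or 32.2% (26.3 to 38.6), and in 80 of 302 treated cells, or 26.5% (21.6 to 31.8). Trbv12-2 held 20 and 39 of these cells. Trbv16 had 21 and 12, Trbv15 had 15 and 14, Trbv26 had 14 and 11, and Trbv12-1 had 6 and 5. By group they were in 23 of 70 control and 23 of 61 treated Ly49 cells. Gzmf CD8 cells held them in 8 of 14 cases without treatment and 10 of 13 with it, and the intervals overlapped. In Gzmk CD8 cells they were in 1 of 4 and 3 of 54.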

How the data were processed

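Single-cell 3′ RNA libraries (10x Genomics, kit version 2 per the labels) of CD45+ tumour cells were deposited as UMI counts per gene and barcode, made with Cell Ranger 6.1.2 per the file headers. The submitters' processing notes also name mm10, Seurat 3.0 and R 3.5.3. Total counts were 46348444 UMIs in 7803 control barcodes and 52973138 in 6724 treated barcodes. Whether counting used strand is not given in the sources used here.

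Barcodes under 200 genes or above 20% mitochondrial UMIs were dropped, doublets were not removed, and T cells and groups were set by UMIs of marker genes. The groups were applied in the order Foxp3 (at least 1 UMI, no Cd8b1), Gzmk CD8 and Gzmf CD8 (a Cd8a or Cd8b1 UMI, at least 2 UMIs of the granzyme, more than of the other), and Ly49 (at least 2 UMIs, no Ncr1). The remaining T cells are not reported here as groups. A segment was called from 1 UMI. Shares have exact Clopper-Pearson intervals, and ratios of CPM have exact conditional binomial intervals. These intervals cover counting error only.

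Leiden clusters (scanpy 1.11.5, leidenalg 0.10.2, resolution 1) were made from 2000 variable genes without V segments. Sequences were matched by gene ID (163 of 163) and aligned with Biopython. The ratio calls were tested on simulated data. Segments named are the 12 commonest of each chain, those at 20% or more of a group with at least 10 positive cells, and the listed ones. The lists are the constant and CD3, signalling, gamma and delta V, delta-shared, invariant T cell and superantigen-deleted genes. Members and lists were chosen with earlier results of these data known.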

Additional observations from a re-analysis of the deposited data

How the results depend on the processing

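In all, 54 results were recomputed under 19 alternatives, giving 332 values. Of these, 287 stayed within the counting interval of the reported value or within 1.5-fold of a count or diversity value. For the detection, Trbv13-1 share, diversity and gene count results alone, 73 values stayed and 19 did not. No ratio past 2-fold changed direction, but alpha detection, higher in the treated library at full depth, was higher in the control library after thinning. The detection shares depended on the definition of a T cell and on depth. With 1 UMI of CD3 an alpha segment was in 14.2% of control and 20.1% of treated cells and a beta segment in 9.04% and 16.8%. With 4 UMIs the control shares were 25.5% and 16.8%. Thinned to 2000 UMIs, alpha was in 9.97% and 8.04% and beta in 5.42% and 6.25%, and thinned to 1000 UMIs alpha was in 5.16% and 4.97% and beta in 2.40% and 3.69%. Summing Trbv13-1 with Trbv13-2 and Trbv13-3 gave 17.8% of control and 31.5% of treated beta-positive cells. With at least 2 UMIs per segment, Trbv13-1 was in 17.9% of treated beta-positive cells, and the intervals of the libraries overlapped for Trbv13-1, Trav8d-2, Trav7d-2 and Trav3-4. Summed by subgroup, those of Trav3, Trav7 and Trav8 overlapped too. In the Gzmk cluster Trbv13-1 reached 89.5%, and the Ly49 cluster shared only 12 control and 2 treated cells with the Ly49 group, so it gave no check of it. Without a minimum of UMIs, 761 genes passed 2-fold in place of 332.

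Alternatives added after seeing the data left the cells with Trav5-4 and Trav3-4 at 20 to 23 and those with Trbv1 and Trbv2 at 7 or 8. Without T cells holding a macrophage or B cell marker UMI, Trbv13-1 was in 29 of 34 treated Gzmk CD8 cells with a beta segment. No paired analysis was possible because there was 1 library per group. The number of mice behind each library is unknown, so differences between mice cannot be told apart from treatment. Few cells showed a segment, and a segment in few cells has an interval wider than its value. This held for Trbv13-1 in 13 control cells, at 5.51% (2.97 to 9.24).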

Other observations

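Trav5-4 led the alpha segments of Foxp3 cells, those with the regulatory T cell factor. It was read in 10 of the 68 alpha-positive Foxp3 cells of the control library and in 5 of 34 after treatment. Trav3-4 was in 5 of the 68 control cells and in 0 of the 34 treated ones, which allows a share of up to 8.82%. Of the 8 control Trav3-4 cells, 5 were Foxp3 cells, whereas none of the 29 treated Trav3-4 cells was. Trbv2 was in 4 of 21 and 4 of 19 Foxp3 cells with a beta segment and Trbv13-2 in 5 and 3. Alpha joining segments gave 5 control and 7 treated UMIs in all T cells, and no beta joining segment was counted.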
